A study of Mus musculus with 4 samples.

Results

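The genes described here encode the SR proteins, the hnRNPs and core proteins of the spliceosome. They were taken by gene symbol, as every row of the deposited count tables whose symbol began with Srsf, Hnrnp, Sf3a, Sf3b, Snrp, Prpf or U2af and continued with the letters or digits of a family member. This gave 69 of 55401 gene rows, of which 11 were SR genes, 20 were hnRNP genes and 38 were snRNP and core genes. The last class held 13 Snrp genes, 9 genes of the SF3A and SF3B complexes, 13 Prpf genes and 3 U2af genes. One of the 13 Snrp rows, Snrpert, is annotated as a processed pseudogene, and 55.7% of the 50-base words of its exons also occur in other genes, Snrpe among them.

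The spliceosome removes introns from pre-mRNA, and it is built on small nuclear RNAs that are wrapped in rings of Sm proteins. U1 recognises the start of an intron, U2 with the SF3A and SF3B complexes binds the branch point, U2AF binds the end of the intron, and the tri-snRNP with PRPF8 at its centre forms the catalytic core. SR proteins bind exons and recruit these parts, while hnRNPs coat the nascent transcript and often oppose SR proteins, so that the balance between both families influences which exons are kept.

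RNA was sequenced from splenic B220+ B cells, sorted from C57BL/6J mice, with 2 libraries for each of the genotypes NSD1B WT (Mb1-Cre+ NSD1+/+) and NSD1B KO (Mb1-Cre+ NSD1fl/fl). Both genotypes carry Mb1-Cre, which is expressed from the Cd79a locus in the B lineage from its early stages, so that the floxed exons of Nsd1 are removed in B lineage cells. According to the study's Methods, the controls were littermates and the mice were young adults of both sexes. Neither the labels nor the Methods state whether the 2 libraries of a genotype came from different mice. The comparison asks how the levels of splicing genes differ in B cells without NSD1, a methyltransferase of lysine 36 on histone H3.

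The deposited values were whole-number counts per gene, with 6769118 to 7566834 counts on genes in a library. Nsd1 had 497 and 480 counts in the NSD1B WT libraries and 284 and 280 in the NSD1B KO libraries, a log2 fold change of -0.74 (SE 0.11, edgeR adjusted p = 8.08e-08). The counts cover the whole gene and not only the floxed exons. All 10 B cell markers were counted, but 7 were lower and 1 higher in NSD1B KO, with Cr2 at 0.077 and Pax5 at 0.10 of their NSD1B WT level. Their summed level, mostly of Cd79b and Ms4a1, was 13025 and 12798 CPM (counts scaled to a fixed library total) in NSD1B WT and 12292 and 11289 in NSD1B KO. The summed CPM of the T cell markers lay between 76.3 and 80.0 in all 4 libraries, with Cd4 and Cd8a at 0, while 2 of 6 tested T cell markers were higher and 3 lower. Of 9 tested myeloid markers 6 were higher, Csf1r by 14.7-fold, and 2 lower, with sums, mostly of Lyz2, of 5408 and 5493 CPM against 6979 and 6611. The erythroid markers stood apart, with 39.6 and 35.6 CPM in NSD1B WT and 1944 and 1690 in NSD1B KO, all 5 tested markers higher, and Slc4a1 at 0 in every library. Of 3 tested NK cell markers 2 were higher and 1 lower, with sums of 55.8 and 59.6 CPM against 88.5 and 88.4. Of 5 tested plasma cell markers 2 were higher and 2 lower, with sums of 315 and 301 CPM against 259 and 268. Of 4 tested markers of plasmacytoid dendritic cells 2 were higher and 0 lower, and their sums overlapped. The part of the cell makeup in the values of splicing genes was not tested. In bulk RNA, fewer cells of a type and less RNA per cell cannot be told apart.

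The threshold was a Benjamini-Hochberg adjusted p below 0.05 in edgeR's quasi-likelihood test together with a fold change above 1.2. Of the 11657 genes tested, 78.2% were past it, 37.1% higher and 41.1% lower in NSD1B KO, so that a call alone does not set a gene apart in this comparison. Of the 5829 tested genes at or above the median level, 77.1% were past the threshold, 39.9% higher and 37.1% lower. The size of a change, the level of a gene and its place within its family are therefore given beside the call. Large changes were common too, since 54.2% of all tested genes were past the threshold with an absolute log2 fold change of 1 or more.

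Of the 69 genes, 64 had enough counts to be tested. The 5 others were named after their values were seen. Srsf12 and Prpf40b had no count in any library, and Hnrnpll, a paralog of Hnrnpl, had 1 count in all. Snrpn, the imprinted paralog of Snrpb, had 4 and 10 counts in NSD1B WT and none in NSD1B KO, which is at least 4.47-fold lower when 3 counts over the genotype are taken as the limit of detection. U2af1l4, a paralog of U2af1, had 6 and 19 counts against none, at least 7.98-fold lower, and the overlapping gene Gm49396 on the same strand, with which it shares 1086 exon bases, went from 28 and 25 counts to none.

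Upstream sequences are shown for 2 pairs of paralogs in which one gene was higher and the other lower in NSD1B KO, Srsf1 with Srsf9 and Hnrnpu with Hnrnpul1, since each pair encodes related proteins whose counts moved apart. The sequences are the 250 bases before the RefSeq gene start in GRCm38.p6, written 5′ to 3′ on the strand of the gene, and capitals mark matches to the GC box (GGGCGG) or the CCAAT box (CCAAT) on either strand. The Srsf1 window is chr11:88047123-88047372 on the plus strand and the Srsf9 window is chr5:115326927-115327176 on the plus strand. The Hnrnpu window is chr1:178337816-178338065 on the minus strand and the Hnrnpul1 window is chr7:25754760-25755009 on the minus strand.
Srsf1: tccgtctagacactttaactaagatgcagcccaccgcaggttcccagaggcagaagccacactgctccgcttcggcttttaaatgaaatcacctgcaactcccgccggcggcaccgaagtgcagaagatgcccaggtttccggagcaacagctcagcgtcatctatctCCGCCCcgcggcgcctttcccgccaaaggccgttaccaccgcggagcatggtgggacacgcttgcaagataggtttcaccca
Srsf9: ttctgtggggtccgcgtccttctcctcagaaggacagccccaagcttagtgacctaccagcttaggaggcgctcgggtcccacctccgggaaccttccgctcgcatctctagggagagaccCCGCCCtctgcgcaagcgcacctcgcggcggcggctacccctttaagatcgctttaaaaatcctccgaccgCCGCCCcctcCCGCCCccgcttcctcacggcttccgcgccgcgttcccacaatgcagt
Hnrnpu: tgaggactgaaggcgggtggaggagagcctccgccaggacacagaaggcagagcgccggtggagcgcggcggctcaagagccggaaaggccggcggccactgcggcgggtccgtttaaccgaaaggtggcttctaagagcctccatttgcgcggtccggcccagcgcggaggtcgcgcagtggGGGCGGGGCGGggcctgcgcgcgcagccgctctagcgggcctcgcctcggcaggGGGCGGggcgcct
Hnrnpul1: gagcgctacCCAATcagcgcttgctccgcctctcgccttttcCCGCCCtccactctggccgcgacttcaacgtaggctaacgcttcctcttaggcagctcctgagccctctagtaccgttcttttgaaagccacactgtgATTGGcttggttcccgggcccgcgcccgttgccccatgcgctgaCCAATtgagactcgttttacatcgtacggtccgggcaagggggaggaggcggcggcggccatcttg

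All 4 windows are rich in G and C, between 58.8% for Srsf1 and 73.6% for Hnrnpu, and hold between 19 and 32 CpG sites. The Srsf1 window has 1 GC box, and those of Srsf9 and Hnrnpu have 3 each, of which 2 overlap in Hnrnpu. The Hnrnpul1 window has 1 GC box and 3 CCAAT boxes, the only CCAAT boxes among these 4 windows. Over the 59 genes of the set with a RefSeq window, 66.1% held a GC box and 47.5% a CCAAT box, against 58.2% and 36.8% of the 7972 windows of tested genes and 33.0% and 34.5% of all 27025 windows. The ETS core motif (CCGGAAG) was found in 28.8% of the set, in 15.9% of tested genes and in 7.07% of all windows, again on either strand. Between the 27 higher and the 16 lower genes of the set with a window, a GC box occurred in 70.4% and 56.2%, a CCAAT box in 51.9% and 56.2%, the ETS motif in 33.3% and 25%, and a TATA box (TATAAA) in 3.70% and 25%, the last being 1 and 4 windows. The E-box CACGTG was in 7.41% of the higher and 6.25% of the lower genes. These matches are descriptions of letters in a window and not of bound sites.

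The splicing genes moved in both directions and by less than most tested genes. Of the 64 tested, 29 were higher in NSD1B KO, 20 were lower and 15 were not past the threshold, so that 76.6% were past it, close to the background of 78.2%. Their median log2 fold change was 0.19, beside -0.10 over all tested genes and 0.05 over the tested genes at or above the median level. Their median absolute log2 fold change was 0.53, beside 1.16 and 0.70 in the same backgrounds. Changes past the threshold of at least 1 on the log2 scale were found in 18 of 64 (28.1%), beside 54.2% of all tested genes and 36.7% of the more abundant ones. The set is itself abundant, with 56 of the 64 at or above the median level and 21 in the top 10% of levels. Both NSD1B KO libraries lay above both NSD1B WT libraries for 34 genes and below them for 23, and 7 genes overlapped. Such separation was found for 88.1% of all tested genes.

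**Figure D1:**
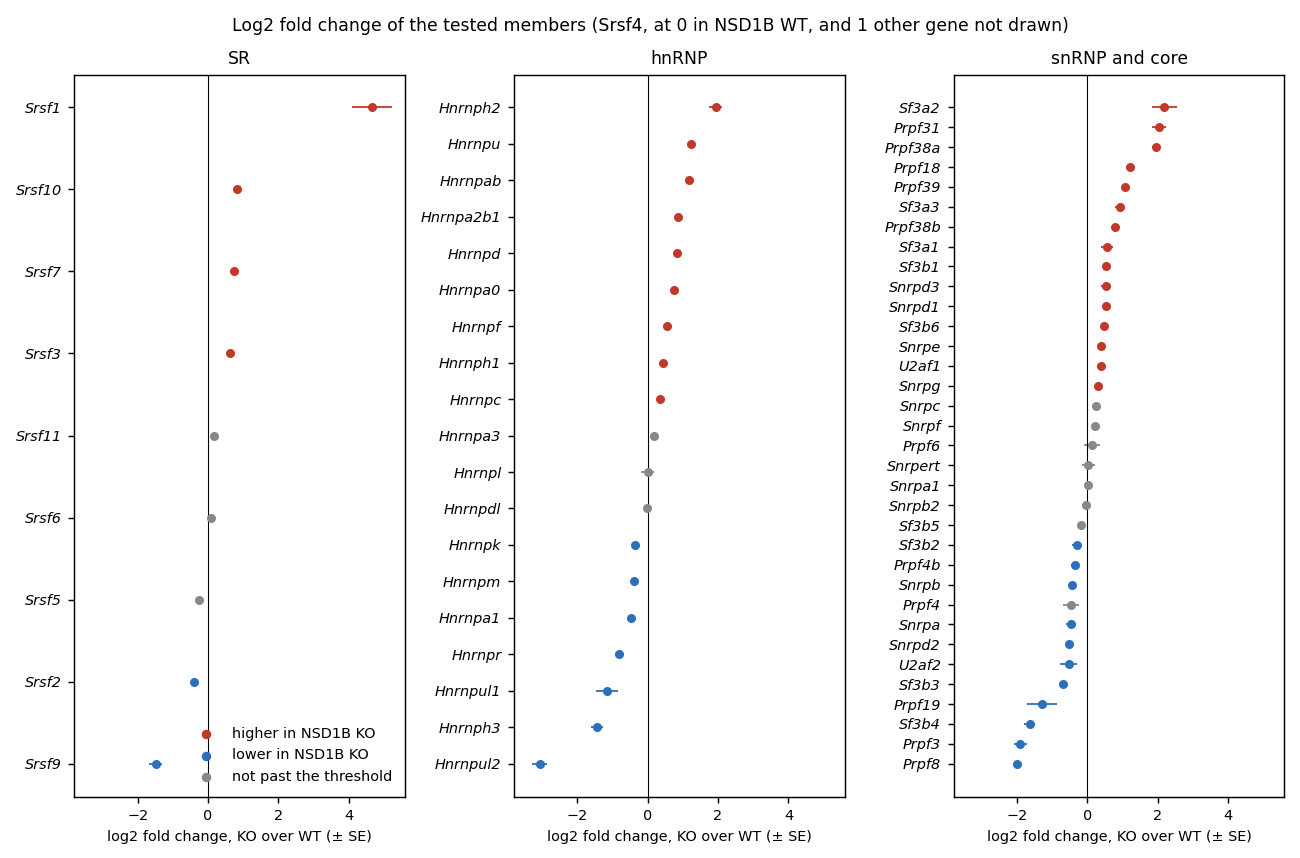
Log2 fold change of NSD1B KO over NSD1B WT (x axis, points with SE bars) for each tested SR, hnRNP and snRNP or core gene, in red where higher, blue where lower and grey where not past the threshold. Each class holds genes on both sides of 0; Srsf4, which had no count in NSD1B WT, and 1 gene that is not reported here are not drawn.

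Summed over its genes, each class took a larger share of the counts on genes in NSD1B KO. The 69 genes held 0.763% and 0.743% of these counts in the NSD1B WT libraries and 0.876% and 0.860% in the NSD1B KO libraries, 1.15 times as much. The SR class had the largest ratio of the 3 classes, 1.24, with shares of 0.161% and 0.160% against 0.203% and 0.195%. For the hnRNP class the shares were 0.255% and 0.243% against 0.294% and 0.283%, and for the snRNP and core class 0.346% and 0.340% against 0.379% and 0.382%. In none of the 3 classes did the genotypes overlap, but with 2 libraries against 2 no exact permutation test on a share can reach 0.05, and none was made. Within the last class the Prpf genes stood at 1.43 times their NSD1B WT share and the SF3 genes at 1.14, whereas the Snrp genes stood at 0.97. The Prpf gene with the most counts was Prpf39, with 1907 and 1953 against 4342 and 3415. It shares exon bases with Fkbp3 on the opposite strand. The Prpf and class shares lean on Prpf39 and were not computed without it. Genes of the mitochondrial genome also took a larger share in NSD1B KO, 8.98% and 9.27% against 7.14% and 7.90%.

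By counts of genes, 5 of 10 tested SR genes were higher and 2 lower, 9 of 19 hnRNP genes were higher and 7 lower, and 15 of 35 snRNP and core genes were higher and 11 lower. The median log2 fold changes were 0.39, 0.17 and 0.21. The classes were not tested against each other. Over all tested genes 37.1% were higher and 41.1% lower. With the length and GC trend removed, 7 hnRNP genes were higher and 7 lower, and 10 snRNP and core genes were higher and 12 lower, so that the balance of the last class turned. None of the 12 tested Snrp genes and 7 of the 12 tested Prpf genes (58.3%) were past the threshold with a change of 1 or more on the log2 scale, beside 54.2% of all tested genes. The median level was 117 CPM for the Snrp genes and 56.6 CPM for the Prpf genes, and the subclasses were not tested against each other.

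**Figure D2:**
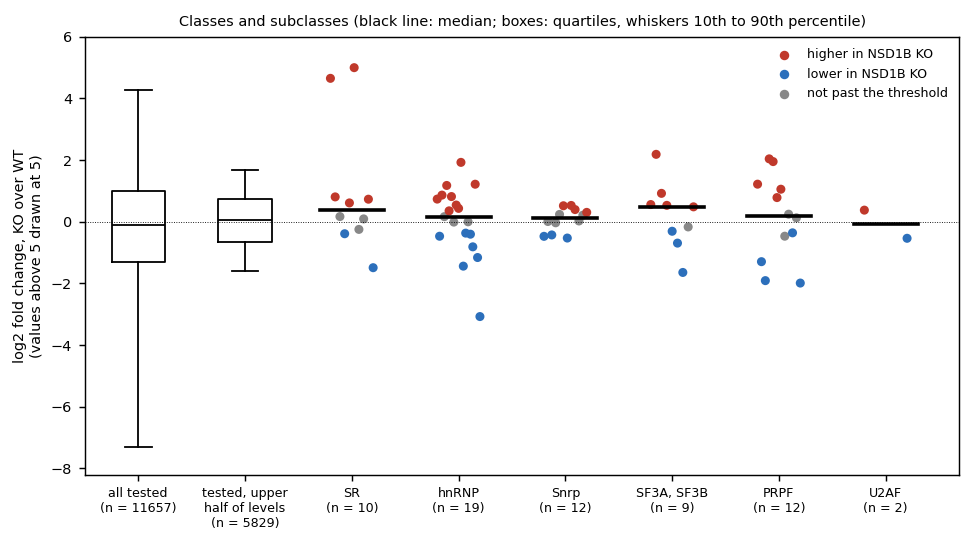
Log2 fold change (y axis) for each tested gene of the 3 classes, the last divided into its subclasses, beside boxes for all 11657 tested genes and for the 5829 at or above the median level. The median lines of the classes lie between -0.08 for the 2 U2AF genes and 0.49 for SF3A and SF3B, and all 12 Snrp points lie between -0.53 and 0.53.

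Among the SR genes the most abundant per length, by the mean of both genotypes, were Srsf7, Srsf2 and Srsf3. In NSD1B WT alone Srsf5 stood above Srsf3, at 44.6 against 38.5 CPM per kilobase of exon. Srsf7, whose protein has a zinc knuckle and takes part in splicing and mRNA export, had 2996 and 3048 counts in NSD1B WT and 5105 and 4578 in NSD1B KO. Per kilobase of exon this was 118 CPM in NSD1B WT and 196 in NSD1B KO, and its log2 fold change was 0.73 (SE 0.08, edgeR adjusted p = 5.01e-12). Srsf3, the smallest SR protein and the closest relative of Srsf7, moved the same way, with 2163 and 2233 counts against 3526 and 2959 (log2 fold change 0.61). Srsf2, which binds exonic enhancers in the nucleus, went the other way, with 1559 and 1697 counts against 1215 and 1181 (log2 fold change -0.39). For these 3 genes the libraries of the genotypes did not overlap. Srsf2 shares 748 exon bases with Mettl23 and Mfsd11 on the opposite strand, and the strand setting of the counting is not given in the sources used here.

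Srsf10, a splicing regulator that responds to dephosphorylation, was also higher, with 965 and 911 counts against 1749 and 1422. Srsf9 fell most, with 236 and 224 counts in NSD1B WT and 90 and 68 in NSD1B KO, a log2 fold change of -1.49 (SE 0.18, edgeR adjusted p = 2.06e-10). Srsf5, Srsf6 and Srsf11 were not past the threshold. Srsf5 had 1260 and 1309 counts against 1143 and 946 and missed only the fold limit, with a log2 fold change of -0.25 (edgeR adjusted p = 0.00846), and it passed that limit at -0.34 without NSD1B KO replicate 1.

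The largest SR changes were in 2 genes that were nearly without counts in NSD1B WT. Srsf4 (chromosome 4, 131873617 to 131901706, plus strand) encodes one of the larger SR proteins and had no count in either NSD1B WT library, but 123 and 118 in NSD1B KO, at least 83.4-fold higher with 3 counts over the genotype as the limit. On the opposite strand Gm12992 shares 1532 exon bases with Srsf4 and had no count in NSD1B WT and 133 and 119 in NSD1B KO. Without the strand setting, counts of Srsf4 and Gm12992 cannot be told apart. Srsf1 (chromosome 11, 88047373 to 88053755, plus strand), the founding SR protein, had 0 and 4 counts in NSD1B WT and 57 and 46 in NSD1B KO, a log2 fold change of 4.65 (SE 0.56, edgeR adjusted p = 2.62e-10). The size of the Srsf1 change rests on the 4 counts of NSD1B WT replicate 2, since the fitted value was 3.74 without NSD1B WT replicate 1 and 8.71 without replicate 2. Srsf1 stayed low in NSD1B KO as well, with 1.29 CPM per kilobase of exon where Srsf7 had 196. A count of 0 in both libraries of one genotype was found for 1.94% of tested genes at or above the median level and for 18.9% of all tested genes. Srsf4 and Srsf1 lie below the median, with levels above those of 36.3% and 19.7% of tested genes. The share of 1.94% therefore does not describe genes at their level.

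**Figure D3:**
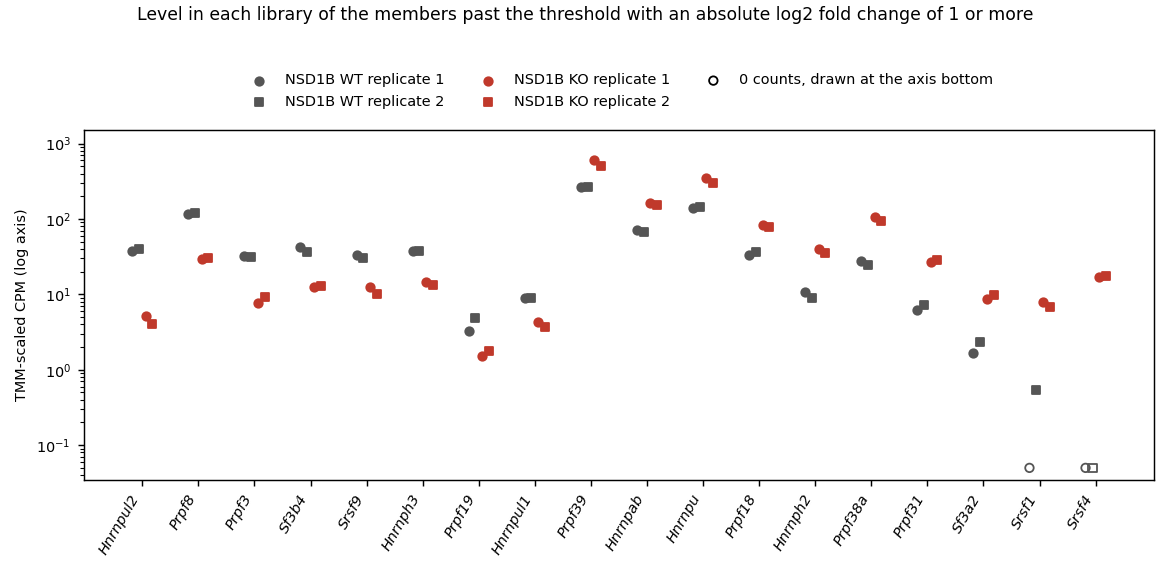
TMM-scaled CPM on a log axis in each of the 4 libraries for the 18 genes past the threshold with an absolute log2 fold change of 1 or more, ordered from the largest fall to the largest rise; open symbols at the bottom are libraries with 0 counts. The genotypes do not overlap for any of the 18, which largely follows from choosing them by their difference in these same libraries. Srsf1 and Srsf4 are the genes with libraries at 0.

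The hnRNP genes held both the deepest fall among the 64 tested genes and several of the most abundant rises. Hnrnpk, a poly(C)-binding protein and the most abundant hnRNP gene per length, had 5074 and 4957 counts in NSD1B WT and 3973 and 3528 in NSD1B KO (log2 fold change -0.37, SE 0.08, edgeR adjusted p = 2.82e-05). Hnrnpa2b1, which binds and sorts RNA in the nucleus and cytoplasm, had 2800 and 2826 counts against 5185 and 4695 (log2 fold change 0.87). Per kilobase of exon, Hnrnpk went from 107 to 83.2 CPM and Hnrnpa2b1 from 59.1 to 108, so that the order of the pair was reversed in NSD1B KO. Hnrnpf, the next in level, had 1117 and 987 counts against 1627 and 1334 (log2 fold change 0.54), but 36.8% of its 50-base words occur in other genes, as do 14.5% of those of Hnrnpk.

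The hnRNP U group encodes large scaffold proteins that bind RNA and chromatin, and its members moved apart. Hnrnpu had 986 and 1047 counts in NSD1B WT and 2534 and 2035 in NSD1B KO, a log2 fold change of 1.22 (SE 0.09, edgeR adjusted p = 1.08e-17). Hnrnpul2 (chromosome 19, 8820010 to 8834143, plus strand) fell from 266 and 295 counts to 37 and 27, a log2 fold change of -3.07 (SE 0.20, edgeR adjusted p = 1.09e-18). It was the deepest fall among the 64 tested genes. Hnrnpul1 had 64 and 66 counts against 31 and 25 (log2 fold change -1.16, SE 0.30, edgeR adjusted p = 0.00057). Hnrnpu shares 804 exon bases on the opposite strand with Cox20, which had 1304 and 1271 counts against 2191 and 1922.

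The hnRNP F/H group, whose proteins bind runs of G, was divided in the same manner. Hnrnph2 on chromosome X rose from 77 and 65 counts to 286 and 236, a log2 fold change of 1.93 (SE 0.18, edgeR adjusted p = 7.18e-14). Hnrnph1 rose from 790 and 736 counts to 1125 and 869 (log2 fold change 0.44), and Hnrnpf was higher as given above. Hnrnph3 fell from 270 and 276 counts to 104 and 90 (log2 fold change -1.44, SE 0.16, edgeR adjusted p = 3.53e-11). In each of these the genotypes did not overlap.

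The hnRNP A/B group, which often promotes exon skipping, was also mixed. Hnrnpa0 was higher (282 and 255 counts against 459 and 404, log2 fold change 0.74), as was Hnrnpa2b1. Hnrnpa1 was lower, with 1034 and 1014 counts against 795 and 634 (log2 fold change -0.47), and 28.2% of its 50-base words occur in other genes, among them the predicted gene Gm10052. Hnrnpa3 had 576 and 624 counts against 690 and 608 and was not past the threshold.

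Of the hnRNP D group, Hnrnpab was higher, from 509 and 498 counts to 1160 and 1038 (log2 fold change 1.18), and Hnrnpd, which binds AU-rich elements, was higher by 0.82 on the log2 scale. Hnrnpab shares 809 exon bases with Phykpl on the opposite strand. Hnrnpdl of the same group and Hnrnpl, a repressor that binds CA repeats, had log2 fold changes of -0.01 and 0.00 and libraries that overlapped. Among the rest, Hnrnpr and Hnrnpm were lower, with log2 fold changes of -0.81 and -0.40, and Hnrnpc, which binds runs of U, was higher by 0.36.

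Srsf1 and Srsf9, which belong to the same branch of the SR family, complete the 4 paralog groups in which 1 gene was higher and another lower. The other 3 are the hnRNP A/B, F/H and U groups. Over all tested genes 37.1% were higher and 41.1% lower, so that groups with both can be common among any genes. No share of divided groups was computed for other genes. The group of Srsf4, Srsf5 and Srsf6 was divided only under some alternatives, since Srsf5 came past the threshold as lower under 6 of them, Srsf4 being higher in each but the filter of 1 CPM, where it was not tested. In the other groups with at least 2 tested genes no such division was found in the main test. These are Srsf3 with Srsf7, the hnRNP D group, Snrpa with Snrpb2, and Prpf38a with Prpf38b. The changes of paralogs were set side by side and not tested against each other.

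The Sm proteins form the ring around the snRNAs. By the mean of both genotypes, Snrpf, Snrpg and Snrpe of this ring were the most abundant core genes per length. In NSD1B WT alone Snrpd2 stood above Snrpe, at 154 against 147 CPM per kilobase. Snrpf had 1570 and 1590 counts in NSD1B WT and 1784 and 1742 in NSD1B KO, or 254 and 294 CPM per kilobase, and its log2 fold change of 0.21 stayed under the fold limit. Snrpg had 1795 and 1871 counts against 2131 and 2226 (log2 fold change 0.31), and Snrpe had 1440 and 1485 against 1874 and 1832 (log2 fold change 0.40). Snrpf shares 21.3% of its 50-base words with other genes, Snrpg 11.3% and Snrpe 9.0%. The Sm genes did not move as one, since Snrpd1 and Snrpd3 were higher by 0.52 and 0.53 while Snrpb and Snrpd2 were lower, with log2 fold changes of -0.43 and -0.53. For Snrpd2 this was 2977 and 2842 counts against 2034 and 1859. Of the proteins specific to U1 and U2, Snrpa of U1 was lower (log2 fold change -0.47), while Snrpc of U1 and Snrpa1 and Snrpb2 of U2 were not past the threshold. The Snrpa call was lost without NSD1B WT replicate 1 (edgeR adjusted p = 0.0857), and that of Snrpg without NSD1B KO replicate 2, where its log2 fold change of 0.23 was under the fold limit. Snrpc came past the threshold as higher without NSD1B WT replicate 1 or NSD1B KO replicate 2, at 0.33 and 0.35.

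The SF3A complex, which joins U2 to the branch point, was higher in all 3 of its genes. Sf3a2 rose from 12 and 17 counts to 63 and 65, a log2 fold change of 2.19 (SE 0.35, edgeR adjusted p = 1.91e-07), although at a low level. Sf3a3 rose from 200 and 196 counts to 365 and 358 (log2 fold change 0.92) and Sf3a1 from 102 and 141 to 157 and 187 (log2 fold change 0.56). The Sf3a1 call was lost with DESeq2 (adjusted p = 0.053) and with limma-voom (adjusted p = 0.0673). It was also lost without NSD1B WT replicate 1 or NSD1B KO replicate 2, where its log2 fold change was 0.39 and 0.38. Sf3a2 shares 429 exon bases with Plekhj1 on the opposite strand, which had 436 and 465 counts against 534 and 503.

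Of the SF3B complex, Sf3b1, its large scaffold, was higher, with 1585 and 1605 counts against 2267 and 2179 (log2 fold change 0.53). Sf3b6, the subunit next to the branch point, was higher by 0.49, from 2160 and 2202 counts to 3180 and 2711. Sf3b4 fell from 305 and 266 counts to 89 and 87, a log2 fold change of -1.64 (SE 0.16, edgeR adjusted p = 1.35e-12). Sf3b4 shares 43.6% of its 50-base words with the predicted gene Gm7935. Sf3b3 and Sf3b2 were lower, with log2 fold changes of -0.69 and -0.31, whereas Sf3b5 was not past the threshold. Without NSD1B WT replicate 2, Sf3b2 stood at -0.05 (edgeR adjusted p = 0.779), and without NSD1B KO replicate 1 at -0.24 (edgeR adjusted p = 0.0974). The Sf3b2 call was also lost with DESeq2 (adjusted p = 0.193) and limma-voom (adjusted p = 0.186).

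The U2AF pair, which recognises the end of the intron, gave small changes. U2af1, the small subunit, had 356 and 351 counts against 494 and 393 (log2 fold change 0.38), and 21.7% of its 50-base words occur in other genes. Without NSD1B KO replicate 1 its log2 fold change was 0.25 and the call was lost (edgeR adjusted p = 0.0658). U2af2, the large subunit, had 91 and 80 counts against 70 and 44 (log2 fold change -0.53, SE 0.25, edgeR adjusted p = 0.048). The U2af2 call was lost with the Wald test of DESeq2 (adjusted p = 0.237), with limma-voom (adjusted p = 0.108) and without NSD1B WT replicate 1, NSD1B WT replicate 2 or NSD1B KO replicate 2, where its log2 fold change was -0.40, -0.62 and -0.28.

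The Prpf genes held large changes in both directions within the tri-snRNP. Prpf8 (chromosome 11, 75486816 to 75509449, plus strand), which holds the catalytic RNAs in place, fell from 836 and 877 counts to 214 and 202, a log2 fold change of -1.99 (SE 0.11, edgeR adjusted p = 9.15e-22). Prpf3 of the U4/U6 particle fell from 230 and 227 counts to 55 and 62 (log2 fold change -1.91, SE 0.19, edgeR adjusted p = 8.95e-13). Prpf31, which binds the U4 RNA and links U4/U6 to U5, rose from 45 and 53 counts to 194 and 195 (log2 fold change 2.04, SE 0.20, edgeR adjusted p = 1.16e-12). Prpf4, the partner of Prpf3, had 104 and 99 counts against 59 and 82 and was not past the threshold (edgeR adjusted p = 0.0592, but 0.00625 without NSD1B KO replicate 2), and Prpf6, which bridges U5 and U4/U6, had 78 and 77 counts against 75 and 88. For Prpf8, Prpf3 and Prpf31 the libraries of the genotypes lay far apart.

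Prpf38a (chromosome 4, 108563172 to 108579336, minus strand), which is needed for activation of the spliceosome, rose from 195 and 179 counts to 763 and 635, a log2 fold change of 1.95 (SE 0.12, edgeR adjusted p = 2.16e-20). Its paralog Prpf38b rose by 0.79. Prpf18, which acts in the second step of splicing, rose from 240 and 263 counts to 600 and 530 (log2 fold change 1.22), and Prpf39 of U1 from 1907 and 1953 to 4342 and 3415 (log2 fold change 1.06). Prpf39 shares 599 exon bases with Fkbp3 on the opposite strand, which had 4658 and 4687 counts against 8918 and 7511. Prpf19, the ubiquitin ligase that gives its complex its name, was low throughout, with 23 and 36 counts against 11 and 12 (log2 fold change -1.29, SE 0.43, edgeR adjusted p = 0.0053). The Prpf19 call was lost without NSD1B WT replicate 2 (edgeR adjusted p = 0.251) and with DESeq2 (adjusted p = 0.0959). The kinase gene Prpf4b was lower (log2 fold change -0.36), a call lost without NSD1B WT replicate 1 (edgeR adjusted p = 0.164) and with DESeq2 (adjusted p = 0.074).

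**Figure D4:**
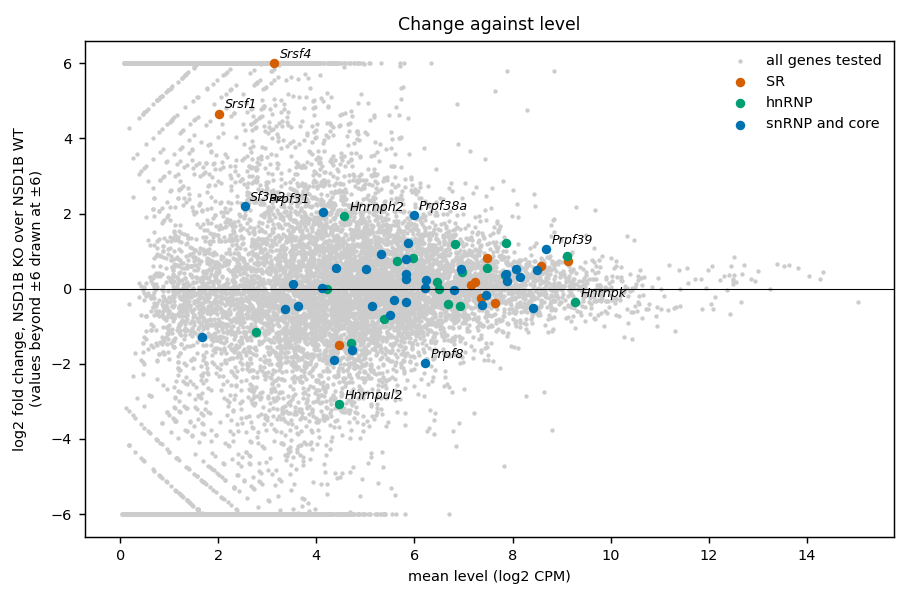
Log2 fold change of NSD1B KO over NSD1B WT (y axis, values beyond 6 drawn at the edge) against mean level in log2 CPM (x axis) for all 11657 tested genes in grey and the SR, hnRNP and snRNP or core genes in colour. Most coloured points lie to the right and near 0, with Srsf4, Srsf1 and Hnrnpul2 among the points farthest from it.

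Across the 64 tested genes, the size of the change fell with level (Spearman's rho -0.33 between absolute log2 fold change and log2 CPM), beside -0.50 across all tested genes. Across genes the signed change had a rho of -0.29 with the GC content of the exons and -0.01 with exon length, beside -0.11 and 0.05 over all tested genes with both values. These are descriptions, since genes in the same 4 libraries are not independent replicates. The 29 higher genes had a median exon GC content of 42.9% and the 20 lower genes 49.8%, where the medians of all higher and all lower genes were 47.6% and 49.9%. When the dependence of the fold changes on exon length and GC content was removed, 22 splicing genes were higher and 22 lower, with a median log2 fold change of 0.10. In all, 27 of the 69 genes share exon bases with another gene and 15 have at least 10% of their 50-base words in another gene.

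Other genes of the splicing pathway, in 9 lists with 137 tested genes, were also mixed, with 56 higher, 47 lower and a median log2 fold change of 0.10. This balance turned when the length and GC trend was removed, as given in the closing section. The share past the threshold was 75.2%, again beside 78.2% of all tested genes. The counts of each list below stand beside 37.1% higher and 41.1% lower over all tested genes. The list with the highest median was that of the kinases and importers of SR proteins, where 6 of 9 tested genes were higher and 1 lower (median 0.70).

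**Figure D5:**
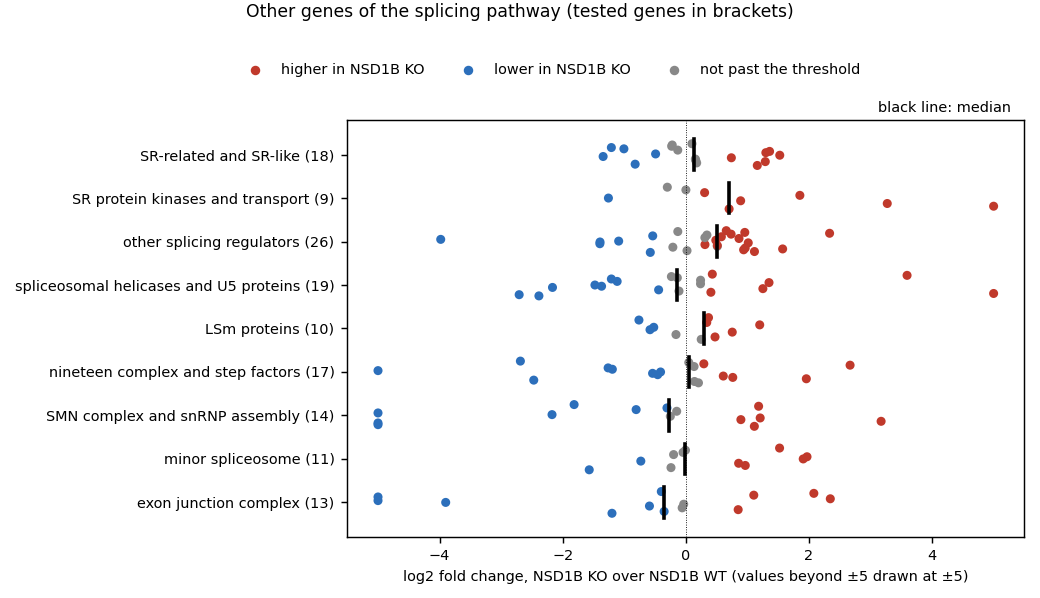
Log2 fold change of NSD1B KO over NSD1B WT (x axis, values beyond 5 drawn at 5) for each tested gene of the 9 pathway lists, with a black line at the median of a list. Medians run from -0.35 for the exon junction complex to 0.70 for the SR protein kinases and transport list.

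The kinases that phosphorylate the serine and arginine repeats of SR proteins were mostly higher. Clk2 had 5 and 2 counts in NSD1B WT and 177 and 190 in NSD1B KO, a log2 fold change of 5.72 (SE 0.35, edgeR adjusted p = 1.16e-19). The other tested genes of this list are all named, beyond the rule for named genes, after their values were seen. Clk3 rose from 65 and 60 counts to 616 and 550 (log2 fold change 3.27), Clk4 rose by 0.89 and Clk1 by 0.70. Srpk1 rose from 64 and 64 counts to 209 and 236 (log2 fold change 1.85) and Srpk2 by 0.31, whereas Srpk3 and the importer gene Tnpo3 were not past the threshold. Dyrk1a, another kinase of splicing factors, was lower, from 363 and 355 counts to 142 and 147 (log2 fold change -1.26).

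Of the 19 tested spliceosomal helicases and U5 proteins, 6 were higher and 8 lower (median -0.14). Cd2bp2, a U5 protein, fell most among those that met the level limit, from 229 and 213 counts to 33 and 32 (log2 fold change -2.71), and Sart3, which reassembles U4 with U6, rose from 33 and 43 to 95 and 92 (log2 fold change 1.35). Snrnp200 and Eftud2, the helicase and the GTPase that bind PRPF8 in U5, were looked up after the fall of Prpf8 was seen. Snrnp200 had 650 and 713 counts against 325 and 281 (log2 fold change -1.12), and Eftud2 had 165 and 127 against 51 and 50 (log2 fold change -1.48). In both, as in Prpf8, the NSD1B KO libraries lay below those of NSD1B WT. Over all tested genes 41.1% were lower, and in 88.1% the genotypes did not overlap. Others of this list, also named after their values were seen, moved in several ways. Snrnp40 was lower (log2 fold change -1.21), Txnl4a was not past the threshold (-0.23), and Ddx23 rose from 0 and 4 counts to 115 and 77.

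In the complex around PRPF19 and among the step factors, 5 of 17 tested genes were higher and 8 lower (median 0.05). Plrg1, a core partner of Prpf19, had 353 and 329 counts in NSD1B WT and none in NSD1B KO, at least 219-fold lower with 3 counts over the genotype as the limit. Plrg1 and the genes at 0 named next, Ddx20, Prmt5, Coil and Smg6, are used in most cell types, and the cause of their counts of 0 was not tested. Slu7, which acts in the second step like Prpf18, rose from 202 and 210 counts to 1345 and 1181 (log2 fold change 2.67).

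Assembly of snRNPs by the SMN complex was represented by 14 tested genes, 5 higher and 7 lower (median -0.28). Ddx20, the Gemin3 helicase, had 184 and 169 counts against none, at least 113-fold lower. Gemin2, which holds the Sm proteins during assembly, rose from 26 and 22 counts to 220 and 199 (log2 fold change 3.17). Prmt5, which methylates Sm proteins, and Coil, which encodes coilin of Cajal bodies, also had counts in NSD1B WT only (151 and 121 for Prmt5, 61 and 61 for Coil), and both were named after their values were seen. Smn1 itself had 92 and 101 counts against 96 and 72 and was not past the threshold.

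Of the 10 LSm proteins, which form rings like the Sm proteins, 5 were higher and 3 lower (median 0.30). With the length and GC trend removed, 3 LSm genes were higher. With limits of 1e-05 on adjusted p and 0.5 on the absolute log2 change, 2 were higher. Lsm7 fell from 5048 and 5066 counts to 2885 and 2857 (log2 fold change -0.76), and Lsm5 rose from 346 and 337 to 795 and 718, or 2.30-fold in CPM. Of 11 tested genes of the minor spliceosome, 5 were higher and 2 lower (median -0.01), with Snrnp48 higher by 1.97 and Armc7 lower, at a log2 fold change of -1.57. Without NSD1B KO replicate 1, 4 genes of that list were lower.

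Of 18 tested SR-related genes, 6 were higher and 5 lower (median 0.13). Rnps1, which binds the exon junction complex, fell from 452 and 438 counts to 181 and 157 (log2 fold change -1.34), and Scaf8 rose by 1.36. Among 26 other splicing regulators, 14 were higher and 6 lower (median 0.50). Syncrip, a relative of Hnrnpr, rose from 169 and 185 counts to 858 and 862 (log2 fold change 2.34), and Pspc1, a paraspeckle protein, fell from 365 and 426 to 27 and 21 (log2 fold change -3.98). Of 13 genes of the exon junction complex and nonsense-mediated decay, 4 were higher and 7 lower (median -0.35). Smg6, the endonuclease of that decay pathway, had 167 and 135 counts against none, at least 97.1-fold lower.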

How the data were processed

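B220+ B cells from the spleen were measured by RNA-seq in 4 libraries, grouped by the genotype in their labels. The values the authors deposited are raw counts, 1 whole number for each gene, with no normalization or length scaling. Their Methods name Bowtie2, mm10 and FPKM from Cufflinks. How reads were counted, with which annotation and strand setting, is not given in the sources used here. Rows naming no gene (58.0% to 60.0% of counts in a library, mostly reads on no feature) stayed out of library sizes and tests. Those not unique were 11.2% and 12.1% in NSD1B WT and 12.7% and 13.2% in NSD1B KO.

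IDs of 99.5% of gene rows matched GENCODE M21 (GRCm38), which gave positions, exon lengths and overlaps. Counts were scaled by TMM and tested with the quasi-likelihood test of edgeR 4.0.16 (R 4.3.3) on all genes passing filterByExpr (minimum count 10, minimum total 15), with Benjamini-Hochberg adjustment. The fold limit of 1.2 is that of the Methods, and p was taken as adjusted. Levels are TMM-scaled CPM. With no statement of separate mice, p-values measure the spread between these libraries, which may be technical. The 2 libraries of a genotype differed by more than counting error (mean chi-square per gene 2.99 and 3.86).

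The gene set, the pathway lists and the tests were chosen with earlier results of these data known. Named genes of the set were those past the threshold with an absolute log2 fold change of at least 1, those at 0 in a genotype with at least 50 counts in the other, the 3 with the highest level per length in each class, the largest rise and fall of each class, and paralog groups with a rise and a fall. Of each pathway list the largest rise and fall were named if their mean log2 CPM reached 3 and the genotypes did not overlap, besides Nsd1. Genes outside this rule are said to be chosen after their values were seen, and the other members of the set are given for completeness, apart from a few items that are not reported here. Alternatives were DESeq2 1.42.0, limma 3.58.1 (voom), other scalings, filters and thresholds, each library left out, a replicate block and removal of a length and GC trend. The script was tested on simulated data.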

Additional observations from a re-analysis of the deposited data

How the results depend on the processing

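Of the 64 tested splicing genes, 37 kept their side of the threshold in every alternative in which they were tested, at most 15. Of these 37, 29 also kept their direction, and 8 that were not past the threshold (Srsf6, Srsf11, Hnrnpa3, Hnrnpdl, Hnrnpl, Snrpa1, Snrpert and Prpf6) had log2 fold changes on both sides of 0. No call of the 64 turned from higher to lower or back. The counts of 29 higher and 20 lower genes became 28 and 18 with DESeq2 and with limma-voom, and 28 and 22 with library size alone. With each library left out in turn they ranged from 28 to 30 higher and from 17 to 21 lower. With a filter of 1 CPM in all 4 libraries, 2855 genes were higher and 2991 lower over all genes, and 3 SR genes were higher, since Srsf1 and Srsf4 do not enter the test under it. With limits of 1e-05 on adjusted p and 0.5 on the absolute log2 change, 21 splicing genes were higher and 9 lower, so that 70% of calls were higher where 59.2% were in the main test, and by class 1 SR, 3 hnRNP and 5 snRNP and core genes were lower and 9 snRNP and core genes higher. Without genes of the mitochondrial genome, the share of counts in NSD1B WT and NSD1B KO was 0.814% and 0.955% for the whole set, 0.174% and 0.219% for SR, 0.269% and 0.317% for hnRNP and 0.371% and 0.419% for snRNP and core genes. Removal of the length and GC trend gave 5 higher and 3 lower SR genes, 7 and 7 hnRNP genes, 10 and 12 snRNP and core genes, and 52 and 56 genes of the pathway lists, so that the balance of the last 2 turned, and it moved Nsd1 to -1.12. It ended the calls of Hnrnpc, Hnrnph1, Snrpe, Snrpg, Sf3b1, Sf3b6, Snrpd1, U2af2 and Sf3b2 and brought Srsf5, Prpf4, Sf3b5 and Snrpb2 past the threshold as lower; the cause was not tested.

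The replicate numbers of the labels do not say that libraries with the same number belong together, and the correlation of their deviations was 0.0645 over all tested genes and 0.0825 over those above a log2 CPM of 3. With the replicate number as a block, 29 splicing genes were higher and 19 lower, the difference being U2af2 (adjusted p = 0.0569 in edgeR's quasi-likelihood test). Counts are per gene, so that transcript variants of SR and hnRNP genes, among them those that carry poison exons, cannot be told apart.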
